A study of Caenorhabditis elegans with 58 samples.

Results

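mir-34 is a single microRNA (miRNA) hairpin of Caenorhabditis elegans, and it is described here through both of its mature arms, mir-34_5p* and mir-34_3p, which are 2 of the 276 miRNA arms in the deposited count table. They were chosen by name with earlier results of these data known, among them that mir-34_5p* is the more abundant arm. The asterisk marks the arm that the annotation calls the star, the strand of the duplex that is normally discarded. Small RNA from whole hermaphrodites was sequenced in 58 libraries that fall into 15 groups and 3 experiments. The series asked what happens to miRNAs when the catalytic residues of the miRNA Argonautes ALG-1 and ALG-2 are mutated from DEDH to AEDH, which removes their ability to cut a fully paired target. A further question was the part of target-directed miRNA degradation, in which a highly paired target sends a miRNA and its Argonaute to decay.

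Experiment 1 compared wild type (strain N2) with animals carrying both mutations, alg-2(cdb155) II and alg-1(cdb153) X (strain MCJ275, called double AEDH here), as mixed embryos, L4 larvae and young adults. Experiment 2 compared young adults of 6 genotypes. These were wild type, double AEDH, ebax-1(tm2321) IV (strain CZ9907, called ebax-1 null), the same ebax-1 allele with both AEDH mutations (MCJ354), Y47H10A.5(cdb188) I (MCJ350, a deletion of the mir-243 binding site in that gene, called Y47 site deletion), and Y47H10A.5(cdb190) I with both AEDH mutations (MCJ352). Experiment 3 compared mixed embryos of wild type, alg-1(cdb153) X alone (MCJ277, called alg-1 AEDH) and alg-2(cdb155) II alone (MCJ288, called alg-2 AEDH). Each L4 group had 3 libraries and every other group had 4. Growth took 48 h at 20 °C to reach L4 and 44 h at 25 °C to reach young adulthood, whereas embryos came from 20 °C cultures, so the difference of young adults from the other stages cannot be told apart from that of temperature. Each mutant genotype is 1 strain, and the Y47H10A.5 deletion is a different allele in each background.

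The miR-34 family is conserved from nematodes to mammals, where its members are transcriptional targets of p53 and restrain the cell cycle. In C. elegans, mir-34 has been linked to the response to DNA damage and other stresses, to ageing, and, with mir-83, to keeping gonad cell migration stable when temperature changes. A miRNA acts through an Argonaute that carries one strand of the duplex and uses its 5′ seed to find targets. The mir-34 seed that defines the family lies in the 5p arm, so the arm that carries the star mark here is the one that bears the family's name. EBAX-1, the nematode relative of mammalian ZSWIM8, is the substrate receptor of the ubiquitin ligase that target-directed miRNA degradation needs.

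The hairpin lies at X:2969775-2969833 on the minus strand of ce11 and spans 59 bases. mir-34_5p* is at X:2969812-2969833 and mir-34_3p at X:2969775-2969796, each 22 bases long. No protein-coding gene overlaps it. The nearest are gbb-1, which ends 1582 bases to the left, and aakg-3, which starts 6614 bases to the right, both on the plus strand. Among 132 hairpins with a marked star, 14 had more counts in the star arm in the mean of the wild-type libraries. In mir-34 the 5p arm held 90.7% of the hairpin's level in that mean, 160 against 16.3 CPM, where CPM is an arm's count per 1000000 miRNA-arm counts of its library. The star share was higher in 1 of the 14, mir-392, whose star stood at 0.569 CPM, and the others ran down to 57.3% in mir-232. The 5p arm was the more abundant one in every one of the 58 libraries.

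The libraries held 4806021 to 21076794 miRNA-arm counts each, and 3 counts, taken as the floor, corresponded to 0.142 to 0.624 CPM. The lowest raw counts of mir-34 were in embryos of experiment 3, where mir-34_5p* had 17 to 112 counts and mir-34_3p 1 to 49. The reads carry no molecular identifiers, so the floor covers counting error only. Whether replicates were grown as separate cultures is not labelled, and the p-values therefore describe the spread of these libraries, which may be technical. Markers matched the labelled stages: the summed level of 5 late larval and adult miRNAs (let-7_5p, mir-84_5p, mir-241_5p, mir-48_5p and lin-4_5p) was 154 to 583 CPM in embryo libraries and 55269 to 91780 CPM in L4 and young adult libraries. The 8 embryo markers, mir-35_3p to mir-42_3p, summed to 203363 to 533717 CPM in embryo libraries and 4892 to 7003 CPM in L4. In young adults they summed to 27986 to 140895 CPM, with both ends in double AEDH of experiment 1. Embryos of experiment 1 had 473821 CPM or more of them, and those of experiment 3 at most 333939 CPM. In bulk RNA of whole animals, fewer cells of a type and less RNA per cell cannot be told apart.

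Both embryo libraries numbered 2 in experiment 1, 1 of each genotype, stood apart from the other embryos in a few arms. lin-4_5p, the heterochronic miRNA that times larval fates, was at 164 (wild type) and 90.4 CPM (double AEDH) there, against 5.23 to 9.67 CPM in the other 6 libraries. For 148 arms with a mean of at least 10 CPM, the excess over the median of the other 3 libraries of the group was taken in each genotype. Ordered by the smaller excess of both genotypes, lin-4_5p came first. mir-34_5p* was the next (2.69 in wild type and 2.25 in double AEDH, on the log2 scale of CPM plus 1). mir-237, of the lin-4 family, came after it with 2.52 and 1.92. mir-34_3p, at 2.20 and 2.37 CPM, was within the range of the other embryos. The main edgeR and limma results of mir-34 that compare embryos of experiment 1 are given with and without both of them. Leaving both out was decided after the values were seen, and mir-34_5p* is among the arms in which they stand apart. Results without them are therefore descriptions, whose sizes and p-values follow partly from that choice. Comparisons of young adults with L4, from a fit that holds both, are given only with them. So are the permutation, spike-in and replicate-block results.

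**Figure D1:**
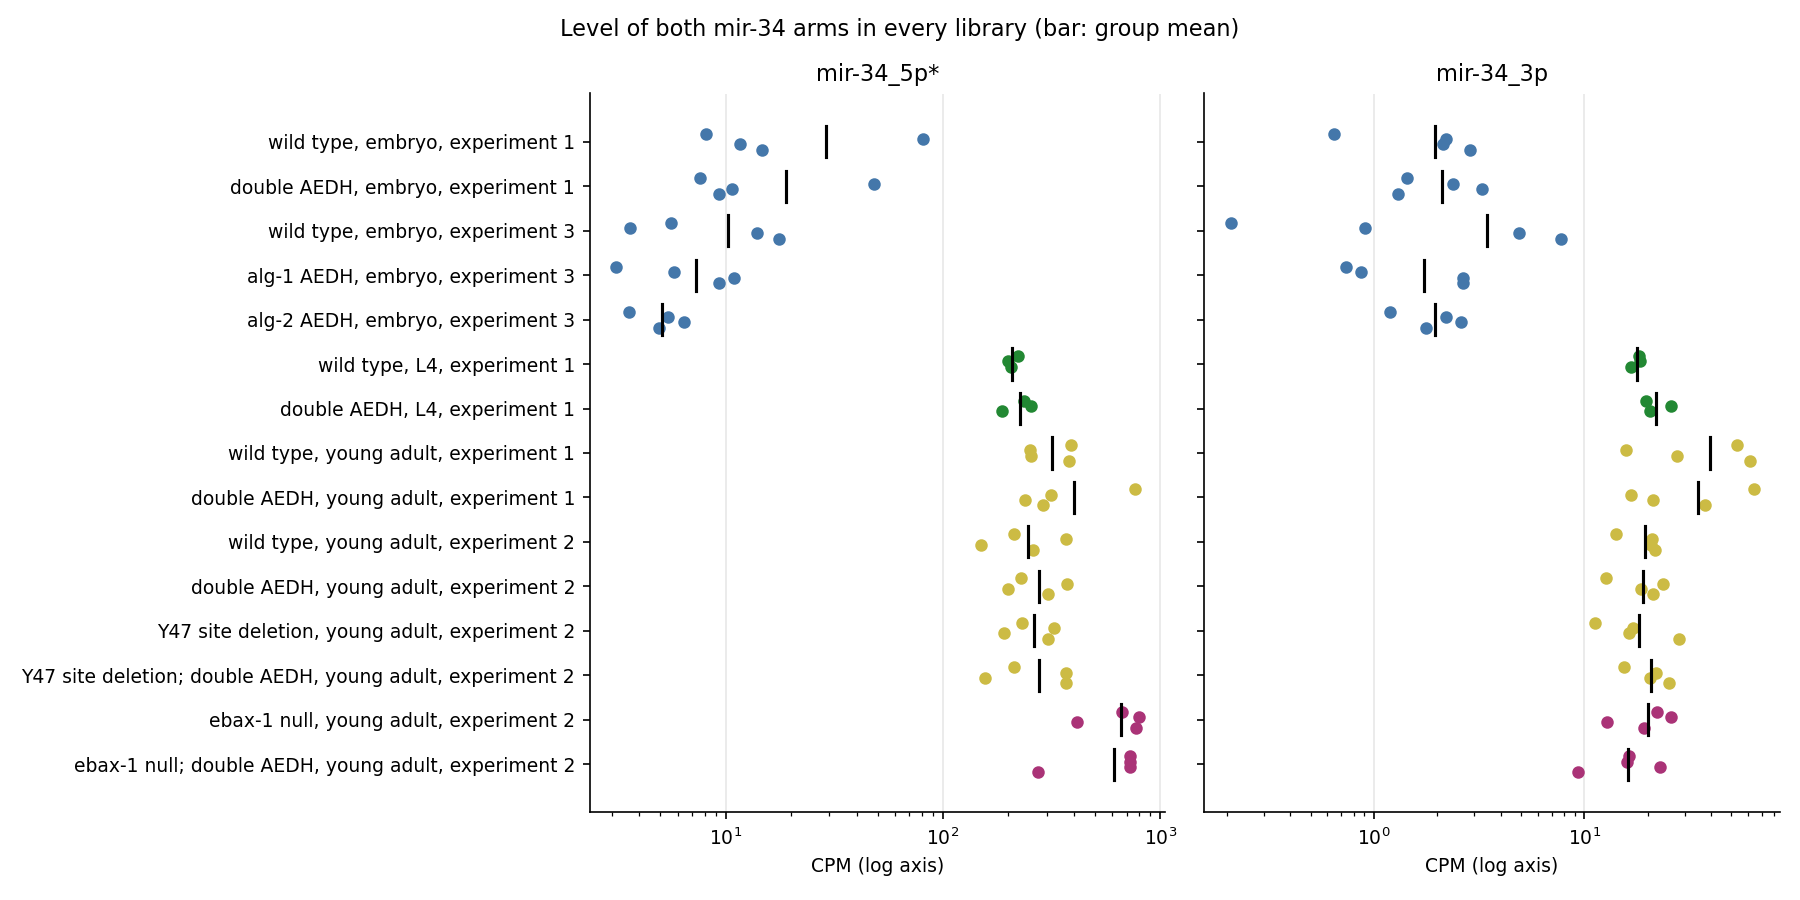
CPM of mir-34_5p* (left) and mir-34_3p (right) in each of the 58 libraries, on log axes, by group. Points are libraries, coloured by stage with both ebax-1 null groups in a colour of their own, and bars are group means. Embryo libraries lie below all L4 and young adult libraries for both arms, and in the left panel 7 of the 8 ebax-1 null libraries lie at 413 CPM or more, as does 1 double AEDH young adult library of experiment 1, at 768 CPM.

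mir-34_5p* was more abundant in L4 larvae and young adults than in embryos. Ordered by group mean, its level ran from 663 ± 177 CPM (SD, n = 4) in ebax-1 null young adults to 5.09 ± 1.19 CPM in alg-2 AEDH embryos. After the ebax-1 null groups (the second, with double AEDH, at 613 ± 225) came double AEDH and wild-type young adults of experiment 1 (402 ± 246 and 318 ± 76.4). The 4 other groups of experiment 2 followed within a narrow band, from 277 ± 78.6 in double AEDH to 247 ± 91.7 in wild type. L4 larvae were close below, at 226 ± 34.8 in double AEDH and 208 ± 11.5 in wild type (n = 3 each). All embryo groups stood lower, with the highest mean, 28.8 ± 34.7 CPM, in wild type of experiment 1. Only one pair of neighbours in this order had ranges that did not overlap: L4 wild type and the embryos, with 198 CPM the lowest L4 value and 80.7 the highest embryo value. Levels set across experiments were not tested.

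mir-34_3p was also lowest in embryos, and its order among the later stages was another one. Its means were highest in young adults of experiment 1, at 39.4 ± 21.3 CPM (wild type) and 34.8 ± 21.3 CPM (double AEDH). All other young adult and L4 groups were between 16.1 ± 5.50 and 21.9 ± 3.29 CPM, and embryos between 1.73 ± 1.07 and 3.43 ± 3.52. In that band stood double AEDH L4 at the top, above all young adult groups of experiment 2, and ebax-1 null with double AEDH, the second for the 5p arm, at the bottom. ebax-1 null, which led the order of the 5p arm, was at 20.0 ± 5.54 CPM here. By rank within its library, mir-34_5p* had a median place of 78 among the 276 arms in wild-type young adults of experiment 2, 55 in ebax-1 null and 142 in wild-type embryos of experiment 1.

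In ebax-1 null mir-34_5p* rose, and mir-34_3p did not pass the test. The 4 wild-type libraries of experiment 2 had 211, 367, 150 and 258 CPM of mir-34_5p*, and the 4 ebax-1 null libraries 666, 797, 413 and 777. Every ebax-1 null library was above every wild-type library. The fitted change was a 2.66-fold rise (log2 fold change 1.41, SE 0.28, 95% interval 0.83 to 2.00, edgeR's quasi-likelihood test, adjusted p = 8.69e-04). In that comparison 21.7% of 226 arms tested were called, 23 higher and 26 lower, and mir-34_5p* had the 8th largest rise among those 23. The 7 called arms with larger ones were mir-788_5p*, mir-42_3p, mir-43_3p, mir-247_3p, mir-253_3p, mir-797_5p* and mir-230_3p.

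mir-34_3p had 14.1, 21.1, 20.7 and 21.7 CPM in wild type and 22.1, 25.9, 12.8 and 19.3 CPM in ebax-1 null. The groups overlapped, and the difference was 0.00 on the log2 scale (95% interval -0.47 to 0.48, edgeR adjusted p = 0.994). The arms of the hairpin thus differed in their change: the 5p-to-3p ratio rose 2.71-fold (log2 1.44, 95% interval 0.84 to 2.04, limma adjusted p = 8.00e-04). 10.9% of 92 hairpins had a called ratio in that comparison, with mir-34 the 5th by p. The 5p share of the hairpin was 92.1 ± 2.98% in wild type and 97.1 ± 0.360% in ebax-1 null, and all 4 ebax-1 null libraries were above all 4 wild-type libraries (exact permutation test, two-sided p = 0.0286, the smallest that 4 against 4 allows, 0.181 adjusted over 19 comparisons).

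With the AEDH mutations in both groups, the same arm rose again. mir-34_5p* was at 228, 373, 199 and 306 CPM in double AEDH and at 723, 724, 728 and 274 CPM in ebax-1 null with double AEDH. Of the ebax-1 null libraries, 3 were above all double AEDH libraries and the fourth, replicate 4, lay among them. The rise was 2.17-fold (log2 1.12, 95% interval 0.54 to 1.70, edgeR adjusted p = 0.00760) and 2.65-fold without replicate 4 (edgeR adjusted p = 6.59e-04). 15.9% of arms were called in that comparison. No library is shared with the comparison of ebax-1 null and wild type, although both come from 1 fit.

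mir-34_3p was at 12.7, 23.7, 18.6 and 21.1 CPM in double AEDH and at 16.3, 16.0, 22.8 and 9.31 CPM in ebax-1 null with double AEDH, with overlapping groups (log2 -0.27, 95% interval -0.75 to 0.21, edgeR adjusted p = 0.613). The 5p-to-3p ratio rose 2.56-fold (limma adjusted p = 0.00184, where 9.78% of hairpins were called). The 5p share was 93.4 ± 1.41% against 97.3 ± 0.574%, and the ranges did not overlap although replicate 4 was included (exact permutation two-sided p = 0.0286, the smallest possible, 0.181 adjusted). In replicate 4 the share was 96.7%, so that library had less of both arms and a share like the rest of its group.

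**Figure D2:**
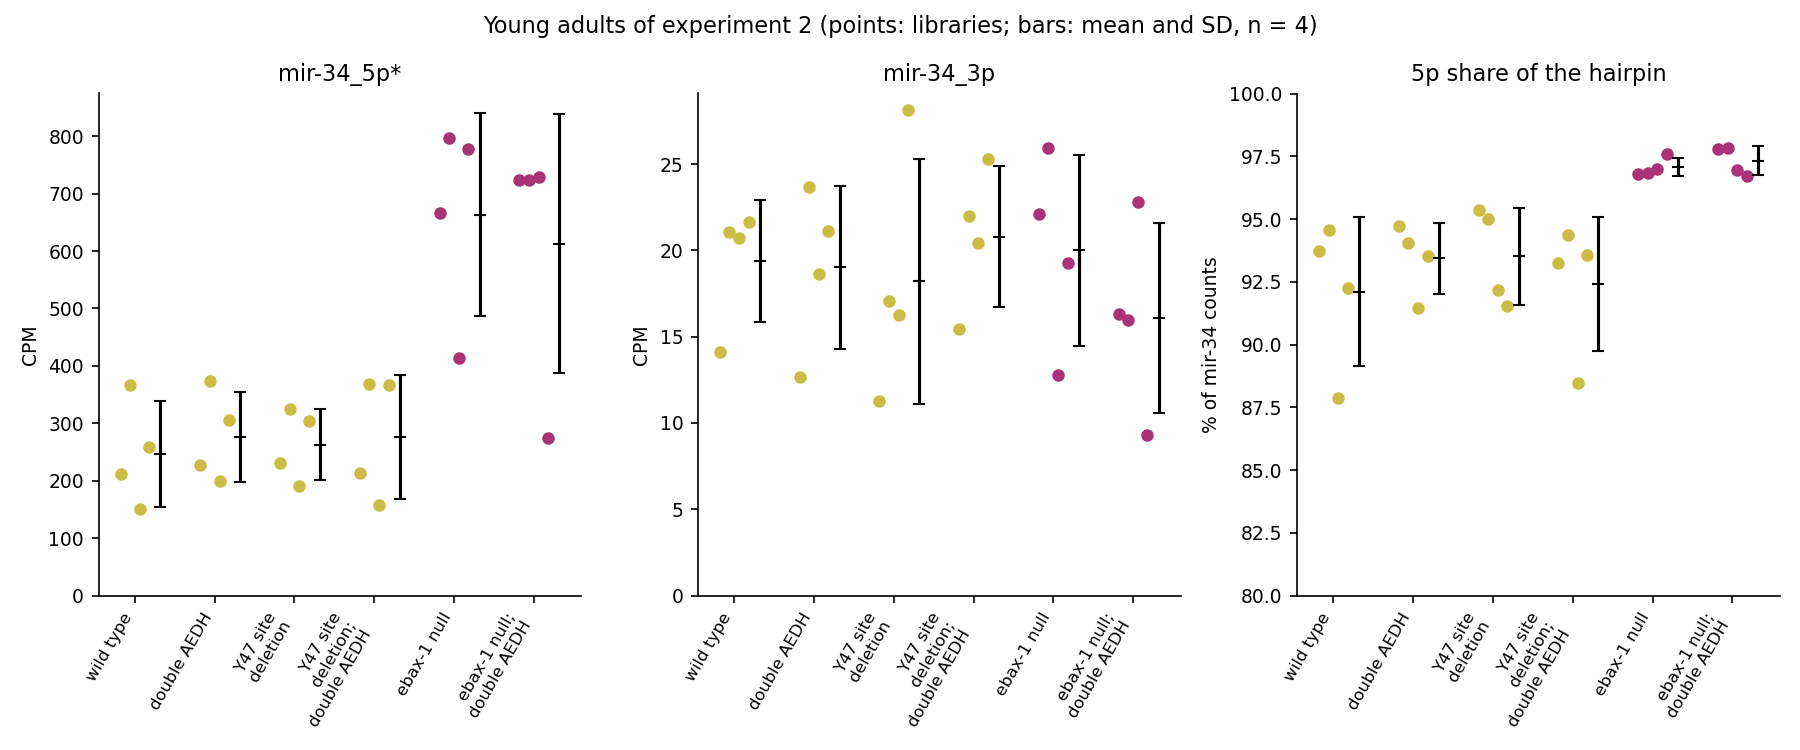
Level of mir-34_5p* (left, CPM), level of mir-34_3p (middle, CPM) and share of mir-34 counts in the 5p arm (right, percent, on an axis from 80 to 100) in the young adults of experiment 2. Points are libraries and bars are mean and SD (n = 4); both ebax-1 null groups stand above the other 4 in the left panel apart from 1 library at 274 CPM, overlap with them in the middle panel and lie above them all in the right panel.

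The difference between both ebax-1 effects was itself tested. On the log2 scale it was -0.29 for mir-34_5p* (95% interval -1.10 to 0.52, edgeR adjusted p = 0.978), -0.28 for mir-34_3p (edgeR adjusted p = 0.978) and -0.08 for the ratio (limma adjusted p = 0.993). 0.885% of arms were called in this interaction and 0% of hairpin ratios, which had 6 at an unadjusted p under 0.05. Directly compared, ebax-1 null with double AEDH and ebax-1 null differed by -0.10 (mir-34_5p*, 95% interval -0.67 to 0.47, edgeR adjusted p = 0.896) and -0.29 (mir-34_3p, edgeR adjusted p = 0.552). The ratio differed by 0.16 (limma adjusted p = 0.853). In that pair of groups 11.1% of arms and 18.5% of ratios were called.

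Some other measures also differed between the ebax-1 groups and their controls, and others overlapped. lin-4_5p was at 1942, 4173, 2065 and 2783 CPM in wild type and at 5332, 6091, 2503 and 4147 CPM in ebax-1 null, a rise of 0.70 on the log2 scale (edgeR adjusted p = 0.0307). In the double AEDH background its difference was 0.52 (edgeR adjusted p = 0.141). Per 100 counts of lin-4_5p, mir-34_5p* had 7.26 to 10.9 counts in wild type and 12.5 to 18.7 in ebax-1 null, without overlap, a ratio computed after the values were seen. The same ratio was 9.28 to 10.1 in double AEDH and 9.94 to 17.5 in ebax-1 null with double AEDH, where replicate 4 made the ranges overlap. The summed late larval and adult markers had medians of 63581 CPM in wild type and 67797 in ebax-1 null, with overlapping ranges. Spike-in RNAs, whose added amount is not given in the sources used here, had 608617 to 1319396 counts in ebax-1 null and 1008738 to 1489308 in wild type, with overlapping ranges. They had 780595 to 847494 counts in ebax-1 null with double AEDH and 982911 to 1191498 in double AEDH, without overlap. Scaled by them, the rise was 4.64-fold (edgeR adjusted p = 1.61e-04) and 3.14-fold in the double AEDH background (edgeR adjusted p = 0.00582), and mir-34_3p differed by 0.79 (edgeR adjusted p = 0.0885) and 0.24. The part of these measures in the result was not tested.

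A list of 11 other arms was counted beside mir-34, made of miRNAs with reported roles in stress resistance or lifespan and named with earlier results of these data known: mir-71_5p, mir-238_3p, mir-239a_5p, mir-239b_5p, mir-246_3p, mir-60_3p, mir-80_3p, mir-83_3p, mir-228_5p, mir-233_3p and lin-4_5p. Each is the arm without the star mark, which for mir-239a was the less abundant one over wild-type libraries (12.4 against 58.8 CPM). In ebax-1 null against wild type, 3 arms of the list rose and 1 fell, against 23 and 26 of all 226 arms (21.7% called). The median log2 change was 0.20 for the list against -0.01 over all arms. Besides lin-4_5p, mir-239b_5p rose by 1.38 (edgeR adjusted p = 0.0306) and mir-233_3p by 0.74 (edgeR adjusted p = 0.0300), whereas mir-60_3p fell by 0.49 (edgeR adjusted p = 0.0182). mir-239b_5p was low in both groups, at 1.84 ± 1.71 CPM in wild type and 4.63 ± 2.12 CPM in ebax-1 null. mir-71_5p, which is needed for normal lifespan, differed by 0.15 (edgeR adjusted p = 0.684), and mir-83_3p, of the miR-29 family, by 0.27 (edgeR adjusted p = 0.249). In the double AEDH background no member rose and mir-60_3p fell by 0.70 (edgeR adjusted p = 0.00165), against 16 higher and 20 lower of all 226 arms (15.9% called), with a list median of 0.00 against -0.04 over all arms.

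Both arms were far lower in embryos than in L4 larvae. In wild type, mir-34_5p* was at 221, 198 and 205 CPM in L4 and at 8.10, 80.7, 11.6 and 14.7 CPM in embryos, and every embryo library was below every L4 library. It was 5.31-fold lower in embryos (log2 -2.41, 95% interval -3.85 to -0.97, edgeR adjusted p = 0.00344), and 14.1-fold lower without both embryo libraries numbered 2 (edgeR adjusted p = 6.35e-09). mir-34_3p was 6.93-fold lower (log2 -2.79, edgeR adjusted p = 2.37e-05), and 7.42-fold without those libraries. In double AEDH the 5p arm was at 236, 254 and 187 CPM in L4 and at 7.58, 48.0, 10.7 and 9.32 CPM in embryos, 8.71-fold lower (edgeR adjusted p = 4.36e-04) and 18.6-fold without both libraries. The 3p arm was 7.88-fold lower (edgeR adjusted p = 9.47e-06), and 8.40-fold without them. A called difference was the rule here: 79.4% of 238 arms (wild type) and 81.9% (double AEDH) were called.

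Young adults differed from embryos in the same direction. Wild-type young adults of experiment 1 had 388, 250, 253 and 380 CPM of mir-34_5p*, all above the embryos. Embryos were 8.77-fold lower (log2 -3.13, 95% interval -4.55 to -1.71, edgeR adjusted p = 2.86e-04), or 23.2-fold without both libraries numbered 2. mir-34_3p was 16.5-fold lower (log2 -4.05, edgeR adjusted p = 1.52e-07), or 17.7-fold without them. Scaled by spike-ins, the wild-type differences were 4.83-fold for mir-34_5p* (edgeR adjusted p = 0.00343) and 9.41-fold for mir-34_3p (edgeR adjusted p = 3.88e-05). In double AEDH the differences were 16.1-fold for mir-34_5p* (edgeR adjusted p = 3.01e-05, 34.7-fold without both libraries) and 12.9-fold for mir-34_3p (edgeR adjusted p = 4.35e-07, 13.8-fold without both). Called arms made up 81.9% in wild type and 84.0% in double AEDH. Exact permutation tests of plain CPM gave the smallest p their sizes allow for both arms and both genotypes, 0.0571 against L4 and 0.0286 against young adults (two-sided), and after adjustment over 19 comparisons 0.181 for mir-34_5p* and 0.271 for mir-34_3p.

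From L4 to young adults the change of the 5p arm did not pass the test. In wild type the arm differed by 0.72 on the log2 scale (95% interval -0.71 to 2.16, edgeR adjusted p = 0.415) and in double AEDH by 0.88 (edgeR adjusted p = 0.320). In wild type all 4 young adult libraries were nevertheless above all 3 L4 libraries in plain CPM. The fit takes its error from all of experiment 1, both embryo libraries numbered 2 included. Values without those libraries are not given for these stages, so a change hidden by the spread of embryos was not tested. mir-34_3p was at 18.1, 18.4 and 16.7 CPM in wild-type L4 and at 53.3, 15.7, 27.6 and 61.0 CPM in young adults, where it rose by 1.25 (95% interval 0.31 to 2.20, edgeR adjusted p = 0.0314). The groups overlapped through young adult replicate 2, and the call was lost in 8 of 13 alternatives, with edgeR adjusted p up to 0.229. Those include leaving out young adult replicate 1 or 4, where the rise was 1.10 and 0.97, or any 1 of the L4 libraries, where it was 1.24 to 1.28. In double AEDH the 3p difference was 0.71 (edgeR adjusted p = 0.221). In these comparisons 42.4% (wild type) and 38.7% (double AEDH) of arms were called.

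The 5p share spread more widely in embryos of experiment 1 than in L4. It ran from 83.7 to 97.3% in wild-type embryos of experiment 1 and from 76.6 to 95.3% in double AEDH embryos, with the highest value of each in the library numbered 2, against 90.1 to 92.5% over all L4 libraries. In those embryos the share rests on 10 to 40 counts of mir-34_3p per library, against 128 to 228 in L4. The part of counting error in this spread was not tested. The change of the ratio between embryo and L4 was -0.16 in wild type (limma adjusted p = 0.803, 47.3% of 93 hairpins called) and -0.56 in double AEDH (limma adjusted p = 0.380, 68.8% called). Against young adults it was 0.21 in wild type (limma adjusted p = 0.766, 60.2% called) and -0.77 in double AEDH (limma adjusted p = 0.196, 67.7% called). Leaving out both libraries numbered 2, which hold the highest share of their groups, was decided after the values were seen and itself lowers the embryo ratio. Without them, the double AEDH ratio was lower in embryos by 1.07 against L4 (limma adjusted p = 0.0247) and by 1.27 against young adults (limma adjusted p = 0.00551). In wild type it was then -0.76 (limma adjusted p = 0.116) and -0.38 (limma adjusted p = 0.415). Between young adults and L4 it differed by -0.38 in wild type (limma adjusted p = 0.713, 25.8% called) and 0.20 in double AEDH (limma adjusted p = 0.878, 20.4% called).

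Most of the stress and lifespan list was also lower in embryos. In wild type 10 of the 11 arms were lower than in L4 and 1 was higher, with a median log2 change of -3.10 against -0.15 over all arms, of which 105 were lower and 84 higher. Without both libraries numbered 2 the counts were the same, with a median of -3.58 against -0.19 over all arms. lin-4_5p was lower by the most (log2 -5.58, edgeR adjusted p = 1.31e-04, and -8.38 without both libraries), followed by mir-246_3p (-4.31), mir-238_3p (-3.80), mir-239b_5p (-3.42, and -4.68 without both), mir-71_5p (-3.39), mir-239a_5p (-3.10) and mir-80_3p (-2.41). mir-83_3p (-1.39), mir-228_5p (-1.32) and mir-60_3p (-0.93) were lower by less, and mir-233_3p was higher (0.93, edgeR adjusted p = 1.87e-06). Against young adults 9 were lower and 1 higher, and 103 of all 238 arms were lower and 92 higher (81.9% called). The medians were -3.40 for the list and -0.13 over all arms, and the list's counts were the same without both libraries. The values there included mir-71_5p at -4.06 and mir-83_3p at -1.56. mir-34_5p* had 28.8 ± 34.7 CPM in these embryos, mir-71_5p 6156 ± 1631 and mir-83_3p 36.6 ± 3.32. mir-239b_5p averaged 0.184 ± 0.239 CPM there, under the floor of 0.193 to 0.252 CPM in those libraries, so its change rests on few counts.

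The AEDH mutations by themselves left both mir-34 arms within the spread of the libraries in most settings. In young adults of experiment 1, mir-34_5p* was at 768, 314, 238 and 290 CPM in double AEDH, with replicate 1 far above the other 3 and above all wild-type libraries. The difference from wild type was 0.35 (95% interval -0.48 to 1.19, edgeR adjusted p = 0.779). Without that replicate it was -0.22. mir-34_3p, at 63.7, 16.7, 21.1 and 37.6 CPM, differed by -0.17 (edgeR adjusted p = 0.926), and the ratio by 0.39 (limma adjusted p = 0.532). The 5p share was higher in double AEDH in 4 of 4 same-numbered pairs, and with replicate number as a block the ratio had a limma adjusted p = 0.142. 1.36% of arms and 5.56% of ratios were called.

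Within this pair of groups, libraries with the same number shared much of their 3p level. Those numbered 1 and 4 had 53.3 and 61.0 CPM in the wild-type group and 63.7 and 37.6 CPM in double AEDH, and those numbered 2 and 3 had 15.7 to 27.6 CPM in both. In L4 larvae the differences were 0.12 for mir-34_5p* (95% interval -0.23 to 0.47, edgeR adjusted p = 0.781), 0.32 for mir-34_3p (edgeR adjusted p = 0.504) and -0.19 for the ratio (limma adjusted p = 0.674), where 4.93% of arms and 13.2% of ratios were called. The 3p arm was at 19.6, 25.7 and 20.5 CPM in double AEDH L4, above the 3 wild-type libraries (exact permutation two-sided p = 0.1, the smallest that 3 against 3 allows, 0.380 adjusted). In young adults of experiment 2 the differences were 0.19 (95% interval -0.38 to 0.77, edgeR adjusted p = 0.780), -0.01 (edgeR adjusted p = 0.993) and 0.24 (limma adjusted p = 0.646), with 7.96% of arms and 10.9% of ratios called. mir-34_5p* was higher in double AEDH in 4 of 4 same-numbered pairs there, at 1.02 to 1.33 of its wild-type partner, and with replicate number as a block the difference was 0.21 (edgeR adjusted p = 0.654).

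In embryos the answer depended on whether libraries were paired by number. Unpaired, mir-34_5p* differed by -0.61 (95% interval -2.60 to 1.37, edgeR adjusted p = 0.835), and 11.3% of 212 arms were called. Same-numbered libraries deviated together in this comparison, and mir-34_5p* was lower in double AEDH in 4 of 4 pairs, at 0.594 to 0.936 of its wild-type partner. With replicate number as a block the difference was -0.46, a 1.38-fold decrease (edgeR adjusted p = 0.0224), and 62 arms were called in place of 24. Without both libraries numbered 2 and unpaired it was -0.35 (edgeR adjusted p = 0.455), and leaving out only the wild-type or only the double AEDH one gave 0.75 and -1.70. mir-34_3p, higher in double AEDH in 3 of 4 pairs, differed by 0.10 (edgeR adjusted p = 0.949) and by 0.09 without both. The ratio differed by -0.59 (limma adjusted p = 0.601, 25.6% of 86 hairpins called) and by -0.50 without both.

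**Figure D3:**
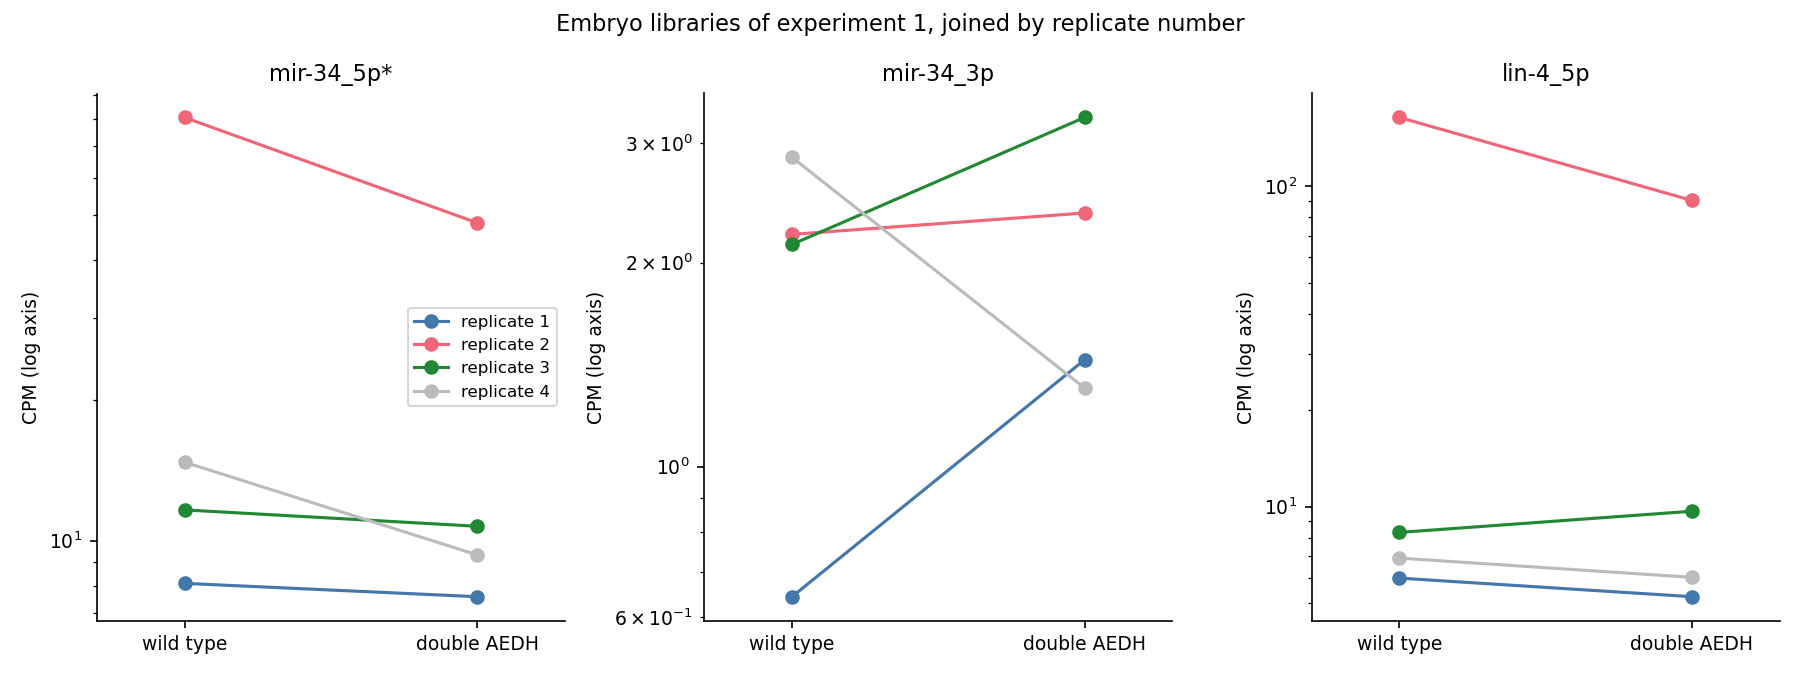
CPM on log axes of mir-34_5p* (left), mir-34_3p (middle) and lin-4_5p (right) in the embryo libraries of experiment 1, with lines joining wild type and double AEDH libraries of the same replicate number. For mir-34_5p* all 4 lines fall from wild type to double AEDH, and for both mir-34_5p* and lin-4_5p the pair numbered 2 lies far above the others, at 80.7 and 48.0 CPM and at 164 and 90.4 CPM.

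The AEDH effect was not shown to differ between stages. For mir-34_5p* the difference of effects was -0.71 between embryos and L4 (edgeR adjusted p = 0.944, 0.420% of arms called), -0.87 between embryos and young adults (edgeR adjusted p = 1.00, 1.26% called) and 0.16 between young adults and L4 (edgeR adjusted p = 0.964, 0% called, 3 at an unadjusted p under 0.05 and 0 by DESeq2). Without both embryo libraries numbered 2 the first of these was -0.41 and the next -0.58. For mir-34_3p the differences of effects were -0.19, 0.36 and -0.55, with edgeR adjusted p of at least 0.944, and without both libraries the first were -0.18 and 0.36. For the ratio they were -0.40, -0.98 and 0.58 (limma adjusted p of 0.883, 0.551 and 0.986; the first were -0.31 and -0.89 without both libraries), where 0%, 5.38% and 0% of hairpins were called and 13 and 1 hairpins in those at 0% had an unadjusted p under 0.05.

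Deleting the mir-243 site in Y47H10A.5, a change aimed at another miRNA, was not shown to change mir-34. mir-34_5p* was at 231, 324, 191 and 304 CPM in the Y47 site deletion and at 213, 368, 157 and 367 CPM in that deletion with double AEDH, overlapping the wild-type range of 150 to 367 CPM. The difference from wild type was 0.09 (95% interval -0.48 to 0.67, edgeR adjusted p = 0.977), and from double AEDH, for the deletion in that background, -0.10 (95% interval -0.68 to 0.48, edgeR adjusted p = 0.988). In both comparisons 0% of arms were called, with 19 and 7 at an unadjusted p under 0.05 and 0 by DESeq2. mir-34_3p differed by -0.15 and 0.03 and the ratio by 0.28 and -0.19, with 0% of ratios called and 6 and 1 at an unadjusted p under 0.05.

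Within the deletion, double AEDH differed by -0.00 for mir-34_5p* (95% interval -0.58 to 0.57, edgeR adjusted p = 0.999), 0.16 for mir-34_3p (edgeR adjusted p = 0.737) and -0.24 for the ratio (limma adjusted p = 0.620). In that comparison 7.08% of arms and 10.9% of ratios were called. The difference of this AEDH effect from that in wild-type background was -0.19 for mir-34_5p* (edgeR adjusted p = 0.957), 0.17 for mir-34_3p and -0.48 for the ratio (limma adjusted p = 0.934). There 0% of arms and 0% of ratios were called, with 11 and 8 at an unadjusted p under 0.05 (and 0 arms by DESeq2).

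In single-mutant embryos mir-34 was near its lowest levels. mir-34_5p* was at 5.62, 3.64, 13.9 and 17.6 CPM in wild type of experiment 3, at 3.12, 5.75, 10.9 and 9.32 CPM in alg-1 AEDH and at 3.58, 5.42, 6.43 and 4.94 CPM in alg-2 AEDH. The groups overlapped, and the wild-type libraries spread by more than either mutant group. In alg-1 AEDH it differed by -0.47 (95% interval -1.30 to 0.35, edgeR adjusted p = 0.995, 0.508% of 197 arms called). In alg-2 AEDH it differed by -0.93 (95% interval -1.77 to -0.09, edgeR adjusted p = 0.172, 4.06% called), and by -0.53 without wild-type replicate 4. Between both mutants the difference was -0.45 (edgeR adjusted p = 0.765, 2.03% called).

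mir-34_3p was at 0.208, 0.910, 4.89 and 7.70 CPM in those wild-type embryos, the first from 1 count and so under the floor, and at 0.733 to 2.66 CPM in alg-1 AEDH and 1.19 to 2.60 CPM in alg-2 AEDH. Its differences were -0.96 in alg-1 AEDH, -0.75 in alg-2 AEDH and 0.22 between them, with edgeR adjusted p of 0.915, 0.481 and 0.940. Without wild-type replicate 4, at 7.70 CPM, the first were -0.32 and -0.011. The 5p share was 81.5 ± 3.82% in alg-1 AEDH and 72.7 ± 1.92% in alg-2 AEDH, and every alg-2 AEDH library was below every alg-1 AEDH library (exact permutation two-sided p = 0.0286, the smallest possible, 0.181 adjusted). These shares rest on 4 to 18 counts of mir-34_3p per library in alg-1 AEDH and 6 to 17 in alg-2 AEDH. Counting error of single libraries was wide enough for their intervals to overlap between the mutants. Those intervals reached up to 81.2% or more in alg-2 AEDH and down to 72.7% or less in alg-1 AEDH. The part of counting error in the separation was not tested. In the test over all hairpins the 5p-to-3p ratio differed by -0.71 between both mutants (limma adjusted p = 0.378, 12.2% of 74 hairpins called). Against wild type, whose share ran from 69.6 to 96.4%, the ratio differed by -0.11 in alg-1 AEDH (limma adjusted p = 0.933, 9.46% called) and by -0.82 in alg-2 AEDH (limma adjusted p = 0.201, 41.9% called). Without wild-type replicate 1, whose 3p arm had 1 count, these were 0.56 and -0.16.

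**Figure D4:**
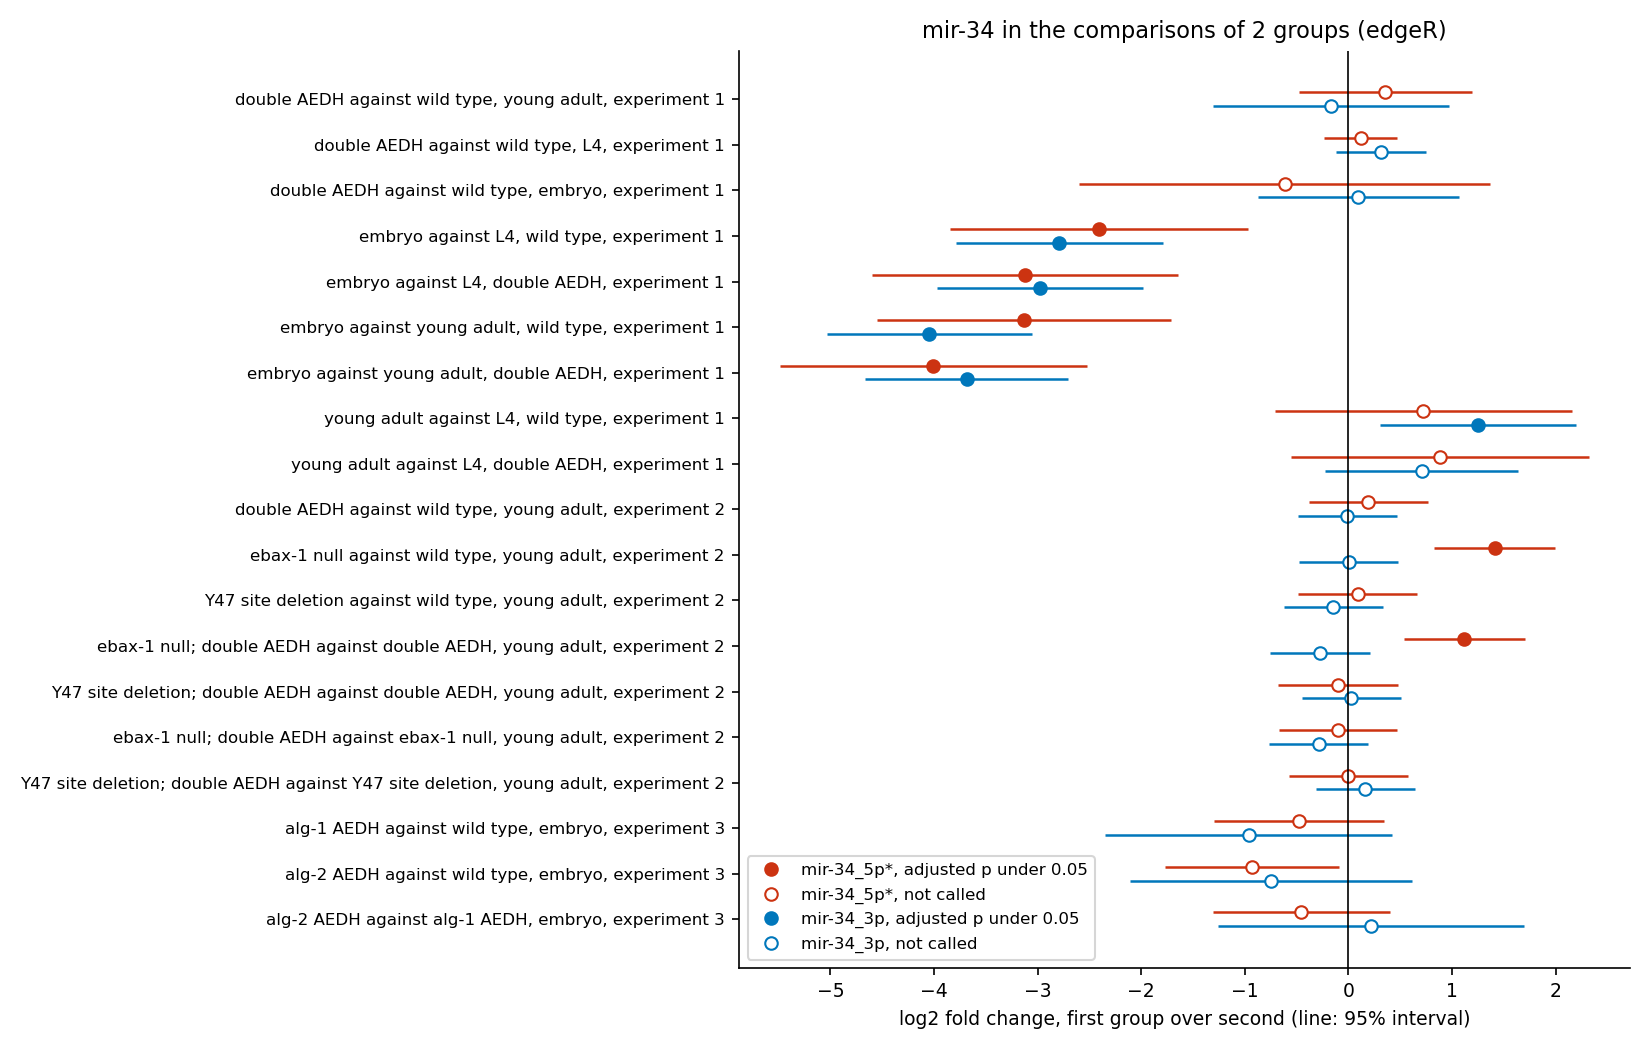
log2 fold change of mir-34_5p* and mir-34_3p in the 19 comparisons of 2 groups, with 95% intervals as lines; filled points have an edgeR adjusted p under 0.05. The called points of mir-34_5p* are the 4 embryo comparisons, all below -2, and both ebax-1 null comparisons, at 1.41 and 1.12, where the points of mir-34_3p are at 0.00 and -0.27.

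The arms whose levels ran most like those of mir-34_5p* were not the same across groups and within experiment 2. Over the 15 group means of log2(CPM + 1), which differ mainly in stage, the highest Pearson correlations among 172 arms were with lin-4_5p (0.98), let-7_5p (0.98), mir-357_3p (0.98) and mir-239a_5p (0.98). mir-34_3p was 24th with 0.95. Over the 24 libraries of experiment 2, a single stage, the order was mir-233_3p (0.91), lin-4_5p (0.88), mir-42_3p (0.88) and mir-43_3p (0.86), and mir-34_3p was 71st with 0.26. These points share libraries, depth and group differences, so the values are descriptions without a test.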

How the data were processed

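The deposited table holds estimated counts per miRNA arm, not normalized, made by the authors with cutadapt 3.4, Bowtie2 2.4.4, SAMtools 1.13 and HTSeq 0.13.5, with DESeq2 also named, per the submitters' processing notes. The strand setting used in counting is not given in the sources used here. Arms and positions come from the deposited annotation, which is MirGeneDB 2.0 on ce11 per the file headers, and neighbouring genes from the WBcel235 annotation. Of all values, 908 ended in 0.5 (0 of them in mir-34) and were rounded up to whole counts. Reads outside any feature, 11.9 to 44.6% of a library, and 10 spike-in RNAs (608617 to 3114232 counts per library in experiments 1 and 2, 16 to 48 in experiment 3) were kept out of library sizes.

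edgeR 4.0.16 was fitted to all arms (quasi-likelihood test, TMM, filterByExpr with a minimum count of 10, robust) in R 4.3.3, with Benjamini-Hochberg adjustment and a threshold of 0.05. Wild type and double AEDH were fitted per stage in experiment 1, stages over all of experiment 1, and experiments 2 and 3 over all their groups. The 5p-to-3p ratio, log2 of counts plus 0.5, was tested with limma 3.58.1 (trend, robust) over hairpins whose arms both averaged 10 counts or more. Folds are TMM-scaled and levels are plain CPM. Levels and shares of 2 groups were compared by exact two-sided permutation tests (scipy 1.17.1).

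Same-numbered libraries deviated together (every correlation of their deviations over 0.1, from the data and not the labels) for double AEDH against wild type in all 3 stages of experiment 1 and in experiment 2, in both comparisons of the Y47 deletion with double AEDH, and for alg-1 AEDH against wild type. That rule leaves out differently numbered libraries. In experiment 1 every same-number correlation named here was above every other one. In the remaining comparisons named, the largest other correlation was above the smallest same-number one. Those were 0.840 and 0.311 for alg-1 AEDH, and 0.417 and 0.180 for double AEDH against wild type in experiment 2. The alternatives were a replicate block, DESeq2 1.42.0 as test and as scaling, total counts, spike-in totals, no filter, a pseudocount of 5, a mean count of 100, and leaving out each library. The scripts were tested on simulated data. Other arms are named from the marker and stress lists (values for mir-71, mir-83 and members past the threshold), as the 4 most like mir-34_5p*, or as other hairpins with a more abundant star. The called arms that rose by more in ebax-1 null, mir-237, and lin-4_5p per library were chosen after their values were seen. Leaving out both embryo libraries numbered 2 of experiment 1 together was also decided after the values were seen. The members and lists were chosen with earlier results of these data known.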

Additional observations from a re-analysis of the deposited data

Results flagged for a closer look

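Of 39 combinations of a group with 4 libraries and a measure (level of either arm, or 5p share), 5 had a library far from the other 3 of its group, where chance gives about 1 in 20. mir-34_5p* stood apart at 80.7 CPM in wild-type embryos and at 48.0 CPM in double AEDH embryos of experiment 1, both replicate 2, which also had the high lin-4_5p levels given in the report. It stood apart at 768 CPM in replicate 1 of double AEDH young adults of experiment 1, where mir-34_3p was at 63.7 CPM, and at 274 CPM in replicate 4 of ebax-1 null with double AEDH, where lin-4_5p was the lowest of its group at 2761 CPM. mir-34_3p stood apart at 14.1 CPM in wild-type young adults of experiment 2, replicate 1.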

How the results depend on the processing

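Of 1037 alternative values of the mir-34 arms and their ratio, 970 kept direction and side of the threshold and 67 did not, of which 12 had a call in either value. The rise of mir-34_5p* and of the ratio in ebax-1 null held in all 14 and 11 alternatives in either background, and both arms stayed called lower in embryos in all 14 (against L4) and 15 (against young adults) alternatives. The replicate block changed the mir-34_5p* call of double AEDH against wild type in embryos (-0.46, edgeR adjusted p = 0.0224), where same-numbered libraries pair, and the call of mir-34_3p in wild-type young adults against L4 (1.09, edgeR adjusted p = 0.0791), where they do not; it changed no other call. That 3p call was also lost with total counts (1.16) and spike-in totals (0.86). Without both embryo libraries numbered 2, an exclusion decided after the values were seen, the double AEDH ratio became called against L4 (-1.07) and young adults (-1.27). In wild type against young adults the ratio reversed to -0.38. The causes were not tested.

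Other values reversed as follows, none called and not all of them near 0. The wild-type ratio was 0.018 against L4 with the block and -0.0038 against young adults with a pseudocount of 5, which gave 0.050 for alg-1 AEDH. Spike-in totals gave mir-34_3p 0.065 (double AEDH in young adults of experiment 1), -0.12 (embryos), -0.18 (embryo minus young adult effect, 0.36 in the main fit), 0.0077 (experiment 2), 0.24 (ebax-1 null with double AEDH against double AEDH, -0.27 in the main fit) and -0.011 (Y47 deletion with double AEDH against double AEDH). mir-34_5p* in the Y47 deletion, double AEDH against not, was 0.010 with DESeq2 as scaling and as test, 0.072 with total counts, 0.026 unfiltered and 0.067 with spike-ins.

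Leaving out each library in turn gave these ranges where direction or call changed. For double AEDH against wild type, mir-34_5p* ran from -0.22 to 0.48 in young adults of experiment 1, -1.70 to 0.75 in embryos and -0.054 to 0.28 in experiment 2, mir-34_3p from -0.69 to 0.11, -0.18 to 0.28 and -0.18 to 0.12, and the ratio from -1.10 to 0.0064 in embryos and -0.012 to 0.41 in experiment 2. The differences of that effect ran from -1.81 to 0.70 (5p), -0.49 to 0.0042 (3p) and -0.91 to 0.20 (ratio) between embryos and L4, -1.98 to 0.52 (5p) between embryos and young adults and -0.29 to 0.34 (5p) between young adults and L4. Stage ratios ran from -0.76 to 0.18 and -0.38 to 0.56 (wild-type embryos against L4 and young adults), -1.27 to -0.40 (double AEDH embryos against young adults, called without embryo replicate 2), and -0.019 to 0.41 (double AEDH young adults against L4). In experiment 2, mir-34_3p in ebax-1 null ran from -0.063 to 0.17, and mir-34_5p* with double AEDH added from -0.28 to 0.082. For the Y47 deletion, mir-34_5p* ran from -0.10 to 0.25 against wild type, -0.17 to 0.17 against double AEDH (3p -0.024 to 0.20, ratio -0.34 to 0.048) and -0.15 to 0.19 with double AEDH added (ratio -0.39 to 0.0050). Interactions ran from -0.25 to 0.17 (ratio, ebax-1) and -0.33 to 0.035 (5p, Y47). In experiment 3 the ratio ran from -0.45 to 0.56 for alg-1 AEDH, and mir-34_3p from -0.012 to 0.44 between mutants.

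Counts of called arms moved by over 1.5 times in several comparisons. ebax-1 null against wild type had 49, 107 with spike-ins and 28 to 50 leaving out a library, and in the double AEDH background 36 and 19 to 29. Double AEDH against wild type had 3 in young adults of experiment 1 (14 with the block, 16 by DESeq2, 6 with its factors, 0 with spike-ins, 0 to 10 leaving out a library), 11 in L4 (26, 20, 12, 2, 2 to 28), 24 in embryos (62, 33, 24, 12, 12 to 32, and 13 without both libraries numbered 2) and 18 in experiment 2 (4 with spike-ins). With double AEDH added, ebax-1 null had 25 (11 with spike-ins, 15 to 30) and the Y47 deletion 16 (2 with spike-ins, 10 to 16). alg-1 AEDH had 1 (8 with the block, 4 by DESeq2, 3 with total counts), alg-2 AEDH 8 (29, 21, 14) and the pair of mutants 4 (16 with the block, 7 by DESeq2). A mean count of 100 gave no value where mir-34_3p was below it, and spike-in scaling was not run in experiment 3, which had too few spike-in counts. The lowest counts were those of mir-34_3p in experiment 3, 1 to 49 per library.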
